A study of Mus musculus with 2 samples.

Results

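Macrophages that carry much major histocompatibility complex (MHC) class II were studied in mouse mesothelioma. Living CD45+ leukocytes had been taken by sorting from AB1-HA tumours, which grow from a mouse mesothelioma line, and were sequenced as single cells with the 10x Genomics 3-prime v3.1 chemistry. There were 2 libraries, 1 from mice given an anti-VEGF antibody and 1 from mice given a control antibody. The number of mice behind each library, their strain, age and the antibody clones and doses are not given in the sources used here. Cells were first gated as macrophages. The gate asked for at least 5000 UMIs (counted RNA molecules), at most 10% mitochondrial UMIs, at most 2 UMIs of the collagens Col3a1 and Col1a2 together, at least 5 of 9 macrophage genes detected, and no UMI of Ly6c2, Flt3 or Cd3e. The 9 genes were C1qa, C1qb, C1qc, Adgre1, Apoe, Mrc1, Trem2, Ms4a7 and Cd68. The gate kept 10545 of 20512 barcodes. Gated cells were ranked, with the libraries pooled, by the mean of log1p(UMIs per 10000) of H2-Aa, H2-Ab1, H2-Eb1 and Cd74, and the top 10% were taken. These 1054 cells, 436 from the anti-VEGF library and 618 from the control library, are the MHC class II high macrophages, called members here, and the other 9491 gated cells are the other macrophages.

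MHC class II molecules are pairs of an alpha and a beta chain that show peptides from ingested protein to CD4+ T cells. In the endoplasmic reticulum the invariant chain, encoded by Cd74, occupies the groove, and in late endosomes H2-DM exchanges its last fragment for peptide. The genes are switched on together by the coactivator CIITA, which interferon-gamma induces in macrophages, acting through proteins bound to X and Y boxes of their promoters. In tumours, class II high macrophages are commonly described next to class II low ones that are richer in hypoxia-linked genes.

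To show these shared boxes, stretches of the RefSeq promoters (build GRCm38.p6, 5′ to 3′ on the gene's own strand) are shown for 2 genes of the score and 3 of the accessory genes. Capitals mark the spellings searched on both strands, AACNNATG for the X box core and TGATTGG for the Y box, which were set after these promoters had been read. H2-Ob is included as a gene that has both spellings and stayed at low levels. Of 22 class II list and score genes 16 had an entry that was used. Entries of a chromosome were left out of this count, and some genes had no entry, among them Ciita and the score gene H2-Ab1. Of the 16, 5 held both spellings as a pair, 4 of which are shown. H2-DMa, which was higher in members, had neither.
H2-Aa (chr17:34287847-34287927, minus strand): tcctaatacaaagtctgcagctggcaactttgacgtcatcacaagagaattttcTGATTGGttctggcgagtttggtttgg
H2-Eb1 (chr17:34305752-34305832, plus strand): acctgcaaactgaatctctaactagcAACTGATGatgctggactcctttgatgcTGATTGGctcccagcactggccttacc
H2-DMb1 (chr17:34153074-34153154, plus strand): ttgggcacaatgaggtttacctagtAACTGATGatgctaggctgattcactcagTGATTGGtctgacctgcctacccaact
H2-DMb2 (chr17:34145103-34145183, plus strand): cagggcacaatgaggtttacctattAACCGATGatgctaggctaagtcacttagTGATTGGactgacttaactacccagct
H2-Ob (chr17:34238792-34238872, plus strand): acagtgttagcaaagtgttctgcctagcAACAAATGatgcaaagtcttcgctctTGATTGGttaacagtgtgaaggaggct
The X spelling followed within 40 bases by the Y spelling was found in 19 of 32851 promoter entries (0.0578%), and 5 of the 19 belonged to class II genes, namely H2-Eb1, H2-Eb2, H2-DMb1, H2-DMb2 and H2-Ob. Since the spellings were read from promoters of such genes, this count follows from their choice and supports nothing. The X spelling, with or without the other, was in 8.86% of entries and the Y spelling in 7.82%. H2-Aa held the Y spelling without this X spelling. A match describes letters and not binding.

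The 4 score genes chose the cells, so their levels describe the choice. Levels are the summed UMIs of the cells named, scaled to a common total as CPM, and intervals cover counting error only, since each antibody has 1 library. H2-Aa, an alpha chain, stood at 5530.0 CPM in anti-VEGF members and 5414 CPM in control members, against 172 CPM in the other anti-VEGF macrophages and 189 CPM in the other control macrophages. Its partner H2-Ab1 stood at 3539 and 3548 CPM in anti-VEGF and control members, and at 137 and 146 CPM in the other macrophages of those libraries. Cd74 reached 11913 CPM in anti-VEGF members and 12684 CPM in control members, against 719 and 795 CPM in the other anti-VEGF and control macrophages. Every member had a UMI of all 4 genes. The boundary was gradual: the 100 cells just inside it had a median of 23.5 H2-Aa UMIs per 10000, and the 100 just outside had 21.2. Among cells that met every other criterion but had a Ly6c2 UMI, 100 of 245 in the anti-VEGF library and 83 of 193 in the control library reached the same score, so class II high cells also existed beyond the gate.

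The gate required at least 5 of its 9 macrophage genes, so the levels of those genes describe the gate and do not test the macrophage label. Members had a median of 9 of the 9 in each library, and the monocyte markers given below, which the gate did not use except for Ly6c2, were higher in members than in the others. C1qa, a chain of the complement component C1q, stood at 4679.9 CPM in anti-VEGF members and 5090.4 CPM in control members, against 2738 and 3094 CPM in the other anti-VEGF and control macrophages. The mannose receptor Mrc1 was at 450.3 and 452 CPM in anti-VEGF and control members, against 247 and 298 CPM in the others. Cd68 was lower in members, with log2 ratios over the other macrophages of -0.41 in the anti-VEGF library and -0.53 in the control library. The 9 B cell markers summed to 55.0 and 97.9 CPM in anti-VEGF and control members, against 20.8 and 48.4 CPM in the other anti-VEGF and control macrophages. Both B cell markers with enough UMIs to be measured were at least 1.5-fold higher in members in both libraries, among them Ighm, while Pax5 was at 0 in members and Cd79a at 0 CPM in anti-VEGF and 0.132 CPM in control members. T cell markers summed to 4.16 CPM in anti-VEGF and 5.08 CPM in control members. Of the dendritic markers, Xcr1, Clec9a, Cd209a, Ccr7, Siglech and Zbtb46 were present in few cells. A UMI of these was in 9.40% of anti-VEGF members (exact binomial interval 6.83 to 12.5) and 9.71% of control members (7.49 to 12.3). The shares were 3.11% and 3.83% in the other anti-VEGF and control macrophages. Longer lists of type 1 conventional, plasmacytoid and mature dendritic markers were each detected in most members, and in most other macrophages. The 8 type 1 markers summed to 330 and 334 CPM in anti-VEGF and control members, against 205 and 247 CPM in the others. Of 7 measured, 4 were at least 1.5-fold higher in members in both libraries and 1 was that much lower. No barcode sequence among members occurred in both libraries. Scrublet, a doublet caller, called 0 and 1 cells among all barcodes of the anti-VEGF and control libraries and so did not work here. No cell was therefore removed as a doublet, and leaving out the cells with the highest scores was tried as an alternative.

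Members made up 9.18% of gated macrophages in the anti-VEGF library (exact binomial interval 8.37 to 10.0) and 10.7% in the control library (9.88 to 11.5). The shares differed by -1.49 percentage points, anti-VEGF minus control, a ratio of 0.86. The ratio varied with depth: within cells of 5000 to 15000 UMIs it was 0.63, within 15000 to 30000 UMIs 0.82, and within cells over 30000 UMIs the direction turned, at 1.18. With 1 library each, spread between mice is not known. Members were less deeply covered in the control library, with a median of 24136 UMIs per anti-VEGF member and 20066.5 per control member.

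Most measured genes of the class II pathway outside the score were higher in members. The list held 18 genes, of which 15 had enough UMIs to be measured (at least 30 over members and others together in each library). Of these, 9 were at least 1.5-fold higher in members in both libraries and none was 1.5-fold lower, while over all 12785 measured genes 5.34% were that much higher and 4.79% that much lower. Members were picked by genes of the same pathway, so these values are a description. The median log2 ratio over the list was 0.91 in the anti-VEGF library and 0.81 in the control library, against -0.08 and -0.11 over all genes. The peptide-exchange chain H2-DMb1 stood at 437 CPM in anti-VEGF members and 426 CPM in control members, against 19.3 and 23.3 CPM in the other anti-VEGF and control macrophages. This was a 22.7-fold difference in the anti-VEGF library (exact conditional interval 21.6 to 23.8) and an 18.3-fold one in the control library (17.5 to 19.0). H2-DMb2 was at 188 and 173 CPM in anti-VEGF and control members, against 10.9 and 12.9 CPM in the others. The alpha chain H2-DMa was at 668 and 686 CPM in anti-VEGF and control members, against 117 and 143 CPM. The coactivator gene Ciita stood at 41.6 CPM in anti-VEGF members and 35.5 CPM in control members, and at 1.94 and 2.52 CPM in the other anti-VEGF and control macrophages. The ubiquitin ligase March1, which removes class II from the surface, had log2 ratios of 1.61 and 1.49 in the anti-VEGF and control libraries. The H2-DM inhibitor genes H2-Oa and H2-Ob stayed below 4 CPM in members. Rfxap and Rfxank, parts of the complex that binds the X box, were nearly level, with log2 ratios of -0.29 and 0.00 for Rfxap and -0.12 and 0.13 for Rfxank in the anti-VEGF and control libraries. Ctsl, a lysosomal protease, was lower in members, at -0.50 and -0.58.

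**Figure D1:**
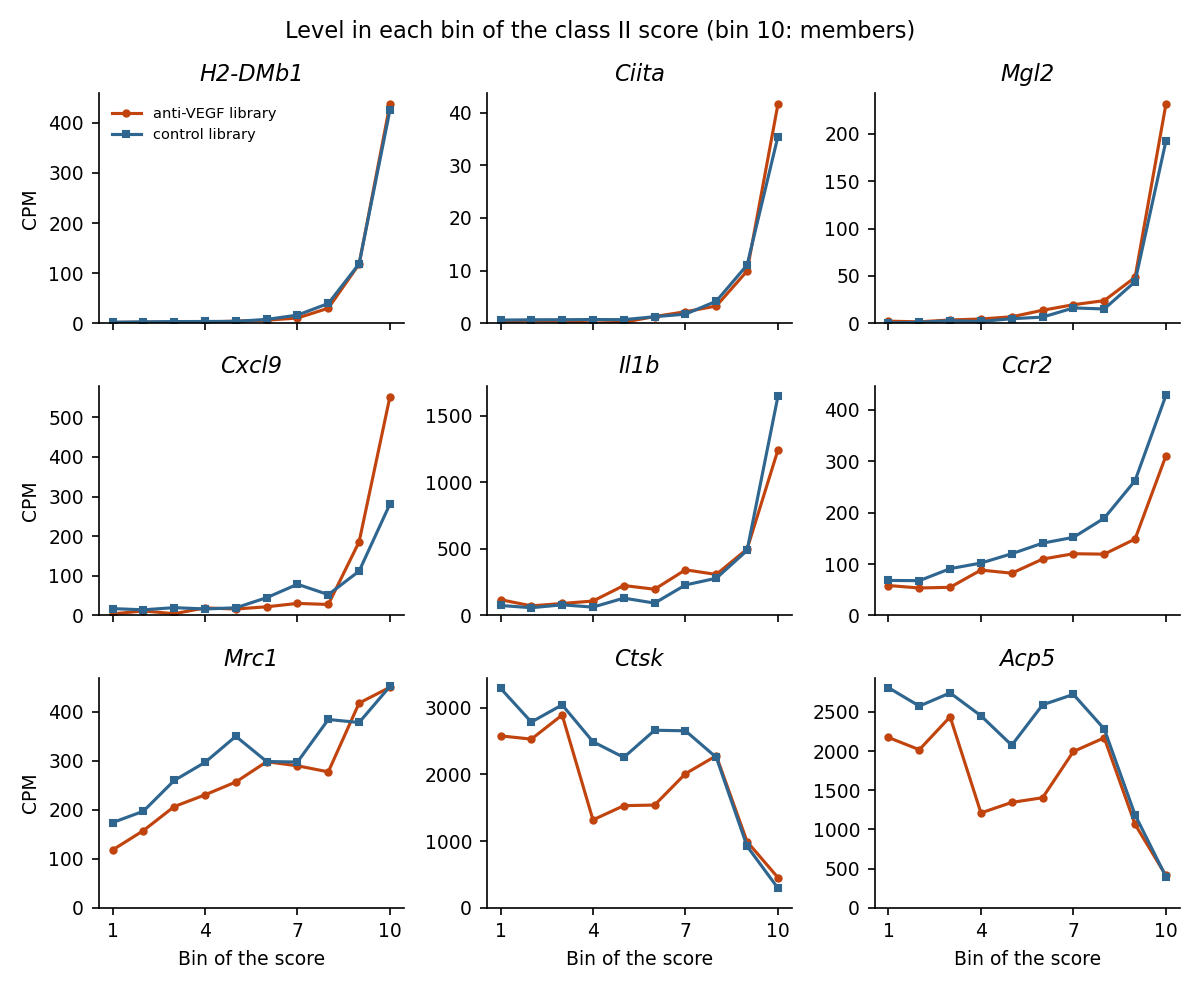
Level in CPM (vertical axes, linear, from 0) of 9 genes in each bin of the class II score (horizontal axes, 10 bins of equal cell number) in the anti-VEGF library (circles) and the control library (squares), where bin 10 holds the members. H2-DMb1, Ciita and Mgl2 stay low until bin 8 and are highest in bin 10, Ccr2 is highest in bin 10 after a gradual climb, and Ctsk and Acp5 are lowest in bin 10.

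Along the score the genes differed in shape, as the plot of levels by score bin shows. In the control library H2-DMb1 stood at 1.9 CPM in the lowest bin, 39.2 CPM in bin 8, 119 CPM in bin 9 and 426 CPM in members. Ccr2, the receptor through which blood monocytes leave the bone marrow, was at 68.2 CPM in the lowest bin, 189 CPM in bin 8, 262 CPM in bin 9 and 428 CPM in members of that library. Outside the score genes, the 10 genes whose levels followed the score most closely over its 10 bins in both libraries were Laptm5, H2-DMb2, Plxdc2, Cybb, Man2b1, Fam49b, Pld4, Runx3, Tapbp and H2-DMb1, with Spearman rho between 0.978 and 0.992 over 20 points that share 2 libraries. Cybb encodes the catalytic chain of the phagocyte oxidase, and Tapbp the chaperone that loads MHC class I. Fam49b had a log2 ratio of only 0.35 and 0.43 in the anti-VEGF and control libraries, so close following did not require a large difference.

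The genes farthest above the other macrophages were mixed in kind. Outside the class II pathway they were Mgl2, Plbd1, Cxcl9, Il1b, C3, Tmem176a, Ltb4r1, AW112010 and Slamf8. Mgl2, a lectin of alternatively activated macrophages and some dendritic cells, stood at 231 and 192 CPM in anti-VEGF and control members, against 13.3 and 10.8 CPM in the other anti-VEGF and control macrophages. The cytokine gene Il1b was at 1242 and 1644 CPM in anti-VEGF and control members, against 212 and 173 CPM. Cxcl9, a chemokine that interferon-gamma induces and that draws T cells, was at 552 and 281 CPM in anti-VEGF and control members, against 35.5 and 43.1 CPM. The complement gene C3 was at 138 and 74.8 CPM in anti-VEGF and control members, against 15.8 and 12.2 CPM. All 4 of these genes were higher in members in both libraries. After each cell was thinned to 5000 UMIs, 35.6% of anti-VEGF members and 22.01% of control members had a Cxcl9 UMI, against 4.40% and 5.66% of the other anti-VEGF and control macrophages. Without thinning the shares were 50.2% and 34.0% in anti-VEGF and control members, and 9.59% and 11.01% in the others. Collagen-expressing cells without Ptprc were taken as a background, though whether they express Cxcl9 themselves was not tested. Their thinned shares were 2.81% and 2.03% in the anti-VEGF and control libraries, with median depths of 42520.0 and 46565 UMIs before thinning.

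**Figure D2:**
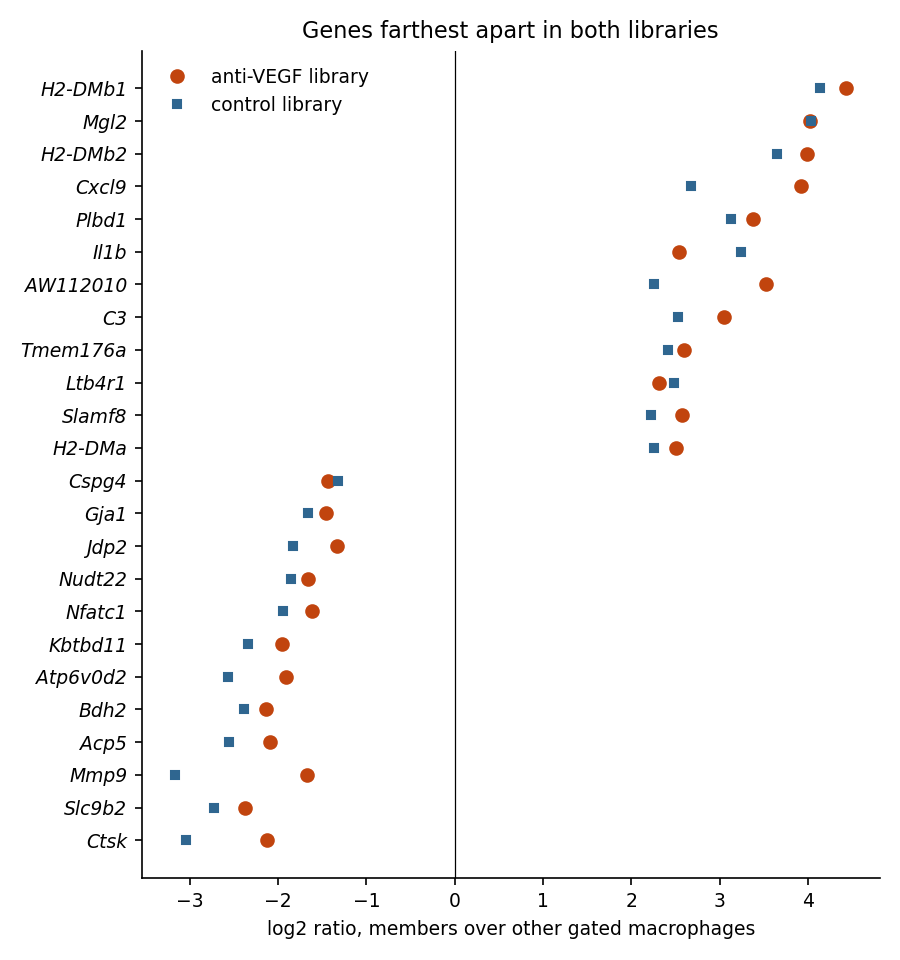
The log2 ratio of CPM (with 1 CPM added) in members over the other macrophages (horizontal axis) for the 12 highest and 12 lowest genes by rule (vertical axis), in the anti-VEGF library (circles) and the control library (squares). Each gene has the same sign in both libraries, such as H2-DMb1 at 4.43 and 4.13 and Ctsk at -2.12 and -3.04 in the anti-VEGF and control libraries.

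Over all measured genes 5.34% were at least 1.5-fold higher in members in both libraries and 4.79% that much lower, the shares to set beside the counts in this paragraph. Of 26 measured interferon-gamma response genes, 20 were at least 1.5-fold higher in members in both libraries, and the median log2 ratio was 1.34 in the anti-VEGF and 0.82 in the control library. Of 12 measured alternatively activated macrophage genes, 7 were at least 1.5-fold higher in both, among them the secreted Retnla (89.5 and 46.2 CPM in anti-VEGF and control members, against 4.95 and 5.09 CPM) and Ccl17 (15.004 and 28.9 CPM in anti-VEGF and control members, against 0.22 and 0.601 CPM). Each of these 2 genes was seen in under 9% of members. The Ccl17 log2 ratio in the anti-VEGF library, 3.71, was -0.52 in cells of 5000 to 15000 UMIs. It was -0.38 for the top-scoring cells retaken without cells that had a Ccr2 UMI, mostly not members. Arg1, the arginase of the same list, was level, with log2 ratios of 0.04 and -0.04. Of 18 costimulation and checkpoint genes, 7 were at least 1.5-fold higher in both libraries. The ligand gene Cd86 was at 94.3 and 114 CPM in anti-VEGF and control members, against 35.5 and 43.5 CPM, and the PD-1 ligand gene Cd274 at 108 and 52.8 CPM, against 30.8 and 19.98 CPM. Fc receptors, which bind antibody, had 4 of 6 genes at least 1.5-fold higher, and their median log2 ratio was 0.91 and 0.96 in the anti-VEGF and control libraries. Of 18 chemokine genes, 13 were higher in members in both libraries and 2 lower in both. By at least 1.5-fold 8 were higher in both and none lower in both. The neutrophil attractant Cxcl2 was at 2273 and 2178 CPM in anti-VEGF and control members, against 1185 and 797 CPM in the others. Ccl2, which draws monocytes, was level, at 1248 and 965 CPM in anti-VEGF and control members, against 1215 and 1030.3 CPM. Among 9 genes of the Ms4a and Tmem176 membrane protein families all were higher in members in both libraries, where 28.1% of all measured genes were. By at least 1.5-fold 6 of them were higher, and Ms4a4c was at 134 and 123 CPM, against 23.9 and 38.5 CPM. Complement genes had 5 of 11 at least 1.5-fold higher, among them the integrin chain gene Itgax (CD11c), at 27.4 and 25.7 CPM in anti-VEGF and control members and 3.69 and 3.35 CPM in the others. The 17 resident-like macrophage genes had no common direction, with medians of 0.19 and -0.28 in the anti-VEGF and control libraries. Nor had the 20 hypoxia genes, with medians of -0.01 and 0.07 in those libraries. In both libraries 6 of the 20 were higher in members and 6 lower, 2 and 1 of them by at least 1.5-fold. Over all measured genes 28.1% were higher in both and 51.8% lower.

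Ccr2 stood at 310.4 and 428 CPM in anti-VEGF and control members, against 91.1 and 136 CPM in the other anti-VEGF and control macrophages. The 8 monocyte markers, of which 7 were detected and Ly6c2 was at 0 by the gate, summed to 609 and 576 CPM in anti-VEGF and control members, against 161 and 179 CPM in the others. The 9 markers of type 2 conventional dendritic cells summed to 102 and 76.3 CPM in anti-VEGF and control members, against 51.0 and 26.9 CPM, with Flt3 at 0 by the gate. A Ccr2 UMI was in 84.86% of anti-VEGF and 89.97% of control members, against 41.14% and 50.85% of the other anti-VEGF and control macrophages. When cells with a Ccr2 UMI were left out and the top 10% retaken, 257 anti-VEGF and 264 control cells were taken. These cells were mostly not members. Among them 257 genes were at least 1.5-fold higher than in the others in both libraries, where among members 683 were. The 2 counts therefore describe different cells. The part of monocytes and dendritic cells in the values of members was not tested.

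In the other direction, the lowest genes in members included several of osteoclasts, the bone-resorbing relatives of macrophages. Acp5, an acid phosphatase, was at 413 and 399 CPM in anti-VEGF and control members, against 1768 and 2359 CPM in the other anti-VEGF and control macrophages. The protease gene Ctsk was at 454 and 296 CPM in anti-VEGF and control members, against 1985 and 2447 CPM. Of anti-VEGF and control members 5.50% and 3.56% had at least 20 UMIs per 10000 of 8 osteoclast markers together, against 16.1% and 26.0% of the other anti-VEGF and control macrophages. The 8 markers, all detected, summed to 1232 and 864 CPM in anti-VEGF and control members, against 4947 and 5988 CPM in the others. Without all cells past that level, an exclusion chosen after seeing the data that removes cells by the same markers and so shrinks their difference by construction, the median log2 ratio over the 8 markers was -0.06 and -0.07 in the anti-VEGF and control libraries, where with them it was -1.98 and -2.57. Lipid-linked genes had 5 of 17 at least 1.5-fold lower in members in both libraries, where 4.79% of all measured genes were. Among them was the lipoprotein lipase gene Lpl, at 69.9 and 71.3 CPM in anti-VEGF and control members, against 138 and 184 CPM in the others. Cell cycle genes were lower in members in both libraries for 20 of 22 genes, 5 of them by at least 1.5-fold, where 51.8% of all measured genes were lower in both. Nuclear genes of oxidative phosphorylation were lower for 18 of 18, but only 1 by 1.5-fold in both, with medians of -0.26 and -0.44. The score genes themselves took 24368 and 24977 CPM of anti-VEGF and control members, and 1112 and 1223 CPM of the other anti-VEGF and control macrophages.

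Anti-VEGF and control members were then compared. The score genes differed little, with log2 ratios of anti-VEGF over control between -0.09 and 0.03. Interferon-gamma response, hypoxia and glycolysis genes were mostly higher in anti-VEGF members, and cell cycle genes mostly lower. Over 10968 genes with at least 30 UMIs in members of both libraries together, 3.36% were at least 1.5-fold higher and 2.15% at least 1.5-fold lower. By direction alone 43.7% were higher and 56.3% lower, and in the other macrophages 31.6% of 13966 genes were higher and 68.4% lower. With 1 library per antibody there is no test and no replicate check, and antibody and library cannot be told apart.

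Of 26 measured interferon-gamma response genes, 22 were higher in anti-VEGF members and 16 of them by at least 1.5-fold, with a median log2 ratio of 0.70 against -0.03 over all genes. In the other macrophages 18 of 26 were higher and 3 by at least 1.5-fold, where 2.61% of all measured genes were that much higher and 1.25% that much lower, and the median was 0.08. The GTPase gene Gbp4 stood at 94.995 CPM in anti-VEGF members and 31.5 CPM in control members, a ratio of 3.01 (exact conditional interval 2.71 to 3.36), and at 12.4 and 7.39 CPM in the other anti-VEGF and control macrophages. Cxcl9 had a ratio of 1.96 (1.89 to 2.04) in members and 0.824 in the others. The chemokine Ccl5 stood at 255 and 86.5 CPM in anti-VEGF and control members, and at 29.9 and 32.2 CPM in the others. Its log2 ratio, anti-VEGF over control, was 1.55 in members. In the top-scoring cells retaken without cells that had a Ccr2 UMI, mostly not members, it was -0.28. Cxcl10, also induced by interferons, was close between members, at 368 CPM in anti-VEGF and 398 CPM in control members, and the receptor genes Ifngr1 and Ifngr2 were lower, at log2 ratios of -0.27 and -0.26.

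**Figure D3:**
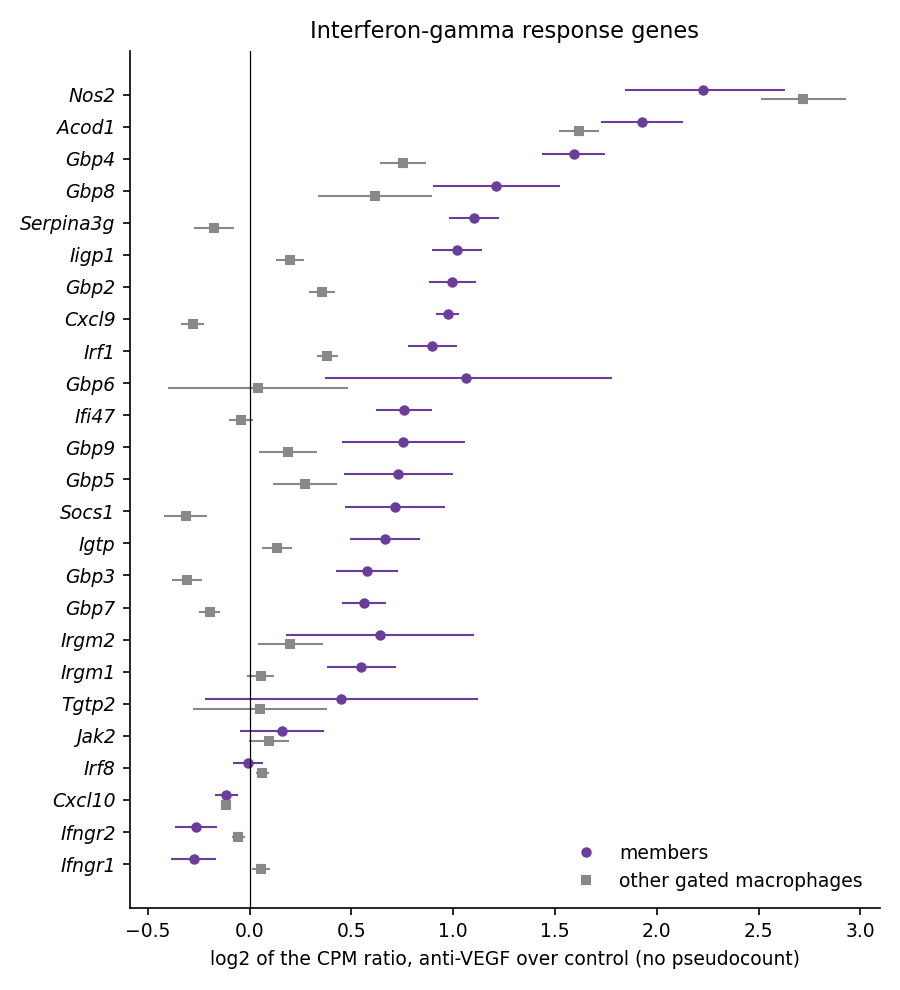
Ratio of CPM, anti-VEGF over control, on a log2 axis without a pseudocount (horizontal axis) for 25 of the interferon-gamma response genes (vertical axis) in members (circles) and the other macrophages (squares). Lines are exact conditional intervals for counting error only. Of the 25 genes drawn, 21 lie above 0 in members and 17 in the other macrophages.

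For the interferon-gamma list the ratio between the libraries varied along the score and was highest in members. Its difference between members and the other macrophages was not tested. The median log2 ratio of the interferon-gamma list was -0.03, 0.08, -0.16, 0.24, 0.09, 0.05, 0.19, 0.27, 0.43 and 0.70 over bins 1 to 10. Per cell, the summed list had a median of 16.2 UMIs per 10000 in anti-VEGF members and 10.3 in control members, and 25th percentiles of 9.55 and 6.66 in anti-VEGF and control members. Without the 10% of members highest in the list, another exclusion chosen after seeing the data, the median was 0.65. In the top 10% retaken without cells that had a Ccr2 UMI, mostly not members, it was 0.46. The other macrophages had medians of 5.62 and 5.94 UMIs per 10000 in the anti-VEGF and control libraries. Of 21 MHC class I presentation genes, 19 were higher in anti-VEGF members, none by 1.5-fold, with a median of 0.27, against 7 of 21 and -0.07 in the other macrophages. In the top 10% retaken without cells that had a Ccr2 UMI the class I median was 0.024. The peptide transporter gene Tap1 was at 148 and 101 CPM in anti-VEGF and control members, and at 63.5 and 66.4 CPM in the others. Type I interferon response genes were higher in anti-VEGF members for 18 of 19, 6 by at least 1.5-fold, with a median of 0.47, and for 15 of 19 in the others with a median of 0.21. Over bins 1 to 10 their median was 0.38, 0.26, -0.06, 0.75, 0.02, -0.004, 0.35, 0.40, 0.19 and 0.47. It was thus highest in bin 4 and not in members. Rsad2, an antiviral enzyme gene, was at 61.5 and 31.5 CPM in anti-VEGF and control members. It also led a small group of members, group 0 below, with 3.67% of anti-VEGF and 2.59% of control members. In that group the median of the type I list, anti-VEGF over control, was 0.03.

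**Figure D4:**
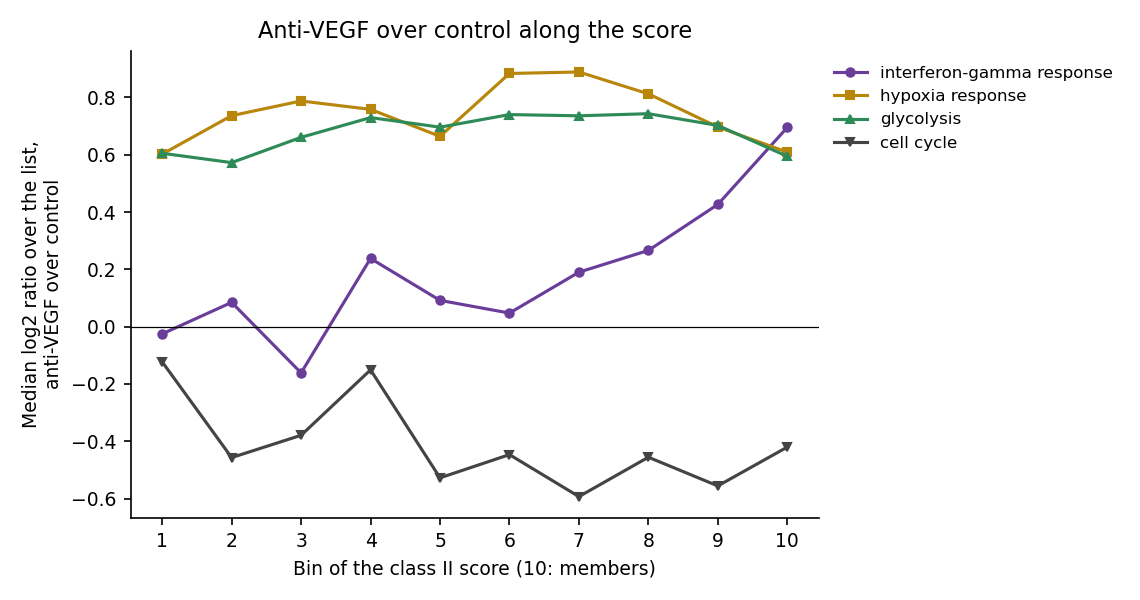
Median log2 ratio of anti-VEGF over control over the measured genes of 4 lists (vertical axis) in each bin of the class II score (horizontal axis). Interferon-gamma response reaches 0.70 in bin 10, hypoxia response and glycolysis lie between 0.57 and 0.89 in every bin, and cell cycle lies below 0 in every bin.

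Hypoxia genes were higher in anti-VEGF members without exception, 20 of 20, 10 of them by at least 1.5-fold, with a median of 0.61. They were also 20 of 20 in the other macrophages, with a median of 0.71. The peptide hormone gene Adm stood at 23.2 CPM in anti-VEGF members and 2.90 CPM in control members, and Bnip3, a mitophagy gene, at 234 and 92.98 CPM in anti-VEGF and control members. Vegfa, the gene of the antibody's target, was at 273 and 222 CPM in anti-VEGF and control members, against 144 and 103 CPM in the others. Glycolysis genes were higher in anti-VEGF members for 14 of 15, with a median of 0.59, and Pgk1 stood at 994 and 516 CPM. Cell cycle genes were lower for 21 of 22, with a median of -0.42, and Top2a stood at 111 and 156 CPM in anti-VEGF and control members. The values in the other macrophages were 0.67 for glycolysis and -0.35 for cell cycle.

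The genes farthest apart by rule were Ly6a, S100a9, S100a8, Mmp12, Acod1, Slc7a2, Cd36, Mmp9, Upp1 and Gbp4 upward, and Tmem176a, Tmem176b, Hspa1a, Fcrls, Cx3cr1, Hspa1b, H2afx, Hmgb2, Selenop and Cenpe downward. Ly6a, the surface protein Sca-1, which interferons induce, stood at 253 CPM in anti-VEGF members and 31.9 CPM in control members, a ratio of 7.93 (7.21 to 8.75), and at 25.5 and 7.07 CPM in the other anti-VEGF and control macrophages. Mmp12, the macrophage elastase gene, was at 236 and 49.5 CPM in anti-VEGF and control members, and Acod1, which makes itaconate, at 68.7 and 18.1 CPM. The neutrophil calgranulin gene S100a9 was at 215 and 31.7 CPM in anti-VEGF and control members, but only 13.3% and 2.91% of these cells had a UMI of it. In cells thinned to 5000 UMIs the shares were 6.65% and 1.46% in anti-VEGF and control members, and 1.31% and 0% in collagen-expressing cells of those libraries, where the exact binomial upper bound for 0 of 345 cells is 1.06%. The neutrophil marker list summed to 431 CPM in anti-VEGF and 92.2 CPM in control members, against 143 and 44.9 CPM in the others, with all 8 markers present, and its part in these values was not tested beyond leaving such cells out. Without cells carrying lymphocyte, mast cell or neutrophil markers the S100a9 log2 ratio was 0.89, where with them it was 2.72. Tmem176a, a channel-like membrane protein gene, was lower, at 76.8 and 181 CPM in anti-VEGF and control members and at 11.9 and 33.1 CPM in the others. The fractalkine receptor gene Cx3cr1 was at 168 and 308 CPM in anti-VEGF and control members, and at 152 and 166 CPM in the others.

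Members were not uniform. Clustering them without the score genes (Leiden, resolution 0.5) gave 8 groups, numbered here and given with their leading genes to identify them. Group 1 held 69 anti-VEGF and 165 control cells, group 2 held 122 and 101, group 3 held 77 and 139, and group 4 held 91 and 150. Leading genes of group 2, such as Mmp12, Ccl5 and Ccl8, and of group 1, such as Hspa1a and Hspa1b, are among those that differed between anti-VEGF and control members, so group sizes and these differences are not independent. Group 1 was led by Fxyd2 and Cp, group 2 by Ccl5, Mmp12 and Ccl8, group 3 by the mitotic genes Nusap1 and Ccna2, and group 4 by Thbs1, Ltb4r1, Il1b and Mgl2. Group 0, with 32 cells, was led by the type I interferon genes Rsad2 and Ifit3, group 5, with 22 cells, by S100a9 and S100a8, group 6, with 34 cells, by Mmp9, Ctsk and Acp5, and group 7, with 52 cells, by the replication genes Ung and Mcm7. Group 5 held 19 anti-VEGF and 3 control cells, so that group and library cannot be told apart there, and its neutrophil markers summed to 7266 CPM. Median scores of the groups lay between 3.62 and 4.17. The median log2 ratio of the interferon-gamma list, anti-VEGF over control, was 0.84, 0.53, 1.04 and 0.31 in groups 1, 2, 3 and 4. It was -0.00 in group 0, 0.21 in group 5, 0.81 in group 6 and 1.13 in group 7.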

How the data were processed

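The authors deposited raw UMI counts per gene and barcode. The submitters' processing notes name Cell Ranger 3.0.2 and mm10, and the matrix headers carry 3.1.0 as version. Members, gene lists and comparisons were chosen with earlier results of these data known, and named genes follow a written rule: list genes, gate and score genes, the 12 highest and lowest genes of members over others, the 10 highest and lowest of anti-VEGF over control (at least 50 CPM and a UMI in 10% of cells in 1 group, without predicted, mitochondrial, ribosomal and immunoglobulin genes), and the 10 that follow the score. Counts were summed per group and library and divided by the total (members 12263844 and 15163808 UMIs, others 122637249 and 149792893, anti-VEGF then control) to give CPM. Log2 ratios used 1 CPM added, and 1.5-fold is the threshold named throughout. Exact Poisson, conditional binomial and Clopper-Pearson intervals at 95% cover counting error only. Features sharing a symbol were summed, and 4 listed symbols were not found. Python 3.11.15, scipy 1.17.1, scanpy 1.11.5 (1500 variable genes, 20 components, 15 neighbours) and, for TMM, edgeR 4.0.16 were used, and the ratio steps were tested on simulated data. A few single genes of the lists are counted with their lists but are not reported here by name.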

Additional observations from a re-analysis of the deposited data

Results flagged for a closer look

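In members 96 of 320 list and named genes differed by at least 1.5-fold between the libraries, and 11 of the 96 had the opposite direction in the other macrophages. The 320 include genes named because they differ most between the libraries, and over all measured genes 3.36% were at least 1.5-fold higher and 2.15% lower in anti-VEGF members, with 87 of these 604 (14.4%) opposite in the other macrophages. This was decided by direction alone, with 1 library on each side, so the difference was not tested, and several of the values in the other macrophages are close to 0. Asking for at least 1.1-fold there leaves 6 genes, 1.2-fold leaves 4 and 1.5-fold leaves 0. On the log2 scale, anti-VEGF over control, members first and the other macrophages after, Cxcl9 was 0.97 and -0.27, Ccl8 0.91 and -0.40, Socs1 0.68 and -0.29, and Ctsk 0.62 and -0.30. In members of 5000 to 15000 UMIs Ctsk turned to -0.61. In the top-scoring cells retaken without cells that had a Ccr2 UMI, mostly not members, Ctsk was -0.89 and Ccl5 -0.28. AW112010 was 1.11 and -0.16, Serpina3g 1.09 and -0.16, Ccl5 1.55 and -0.11, and Fcgr4 0.61 and -0.05. Ifi47 was 0.75 and -0.04, Retnla 0.94 and -0.04, and Ccr7 -1.03 and 0.01. The other macrophages are pooled over bins 1 to 9 here, and for some genes the direction differed between bins. In bin 9 Cxcl9 stood at 186 and 112 CPM in the anti-VEGF and control libraries, AW112010 at 187 and 135 CPM, and Ctsk at 993 and 924 CPM. In bin 7 they stood, in the same order, at 30.4 and 78.7, 55.7 and 69.5, and 2012 and 2655 CPM.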

How the results depend on the processing

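No paired analysis was possible because each antibody has 1 library, and for the same reason no replicate could be left out. The share of members, anti-VEGF over control, was 0.86 as a ratio and 0.76 to 0.97 under the alternatives, with 3 exceptions: it was 0.63 in cells of 5000 to 15000 UMIs and turned to 1.18 in cells of over 30000 UMIs, a split by depth added after seeing the data, and ranking within each library makes it 1 by construction. Genes at least 1.5-fold higher in members in both libraries numbered 683, against 257 without cells that had a Ccr2 UMI, 431 with 5 CPM added and 325 in cells of 5000 to 15000 UMIs. In every setting without Ccr2 cells the top-scoring cells were retaken and were mostly not members. Lower ones numbered 613, against 1063 with the top 5% as members, 274 with the top 20%, 133 without Ccr2 cells, 1048 with 0.1 CPM added, 264 with 5 CPM added and 389 in cells of 5000 to 15000 UMIs. Genes at least 1.5-fold higher in anti-VEGF members numbered 368, against 171 with 5 CPM added and 852 in cells of 5000 to 15000 UMIs. Lower ones numbered 236, against 512 without Ccr2 cells, 412 with 0.1 CPM added, 45 with 5 CPM added, 113 with a minimum of 100 UMIs, 578 in cells of 5000 to 15000 UMIs, 360 in cells of 15000 to 30000 UMIs and 397 in thinned cells. A stricter minimum tests fewer genes and fewer cells give fewer UMIs, and otherwise the cause was not tested. Of the single-gene values at least 1.5-fold apart, 11 values of 7 genes changed sign. Without osteoclast-marker cells, chosen after seeing the data, members over others became 0.28 for Ctsk (anti-VEGF) and 0.11 for Mmp9 (control). For the top-scoring cells retaken without Ccr2 cells, the ratio over the others became 0.046 for Acp5 (control) and -0.38 for Ccl17 (anti-VEGF). In those cells anti-VEGF over control became -0.011 for Mmp9, -0.28 for Ccl5 and -0.89 for Ctsk. In cells of 5000 to 15000 UMIs, members over others in the anti-VEGF library became 0.215 for Kbtbd11, 0.64 for Jdp2 and -0.52 for Ccl17, and anti-VEGF over control in members became -0.61 for Ctsk. Of the other single-gene values 1288 stayed within the counting interval and 1354 did not, and 17 values of 4 genes, all under 1.5-fold as reported, changed sign. Among list medians 858 moved by less than 1.5-fold and 18 by more, and that of the interferon-gamma list in members, 0.70, lay between 0.46 and 0.91. Genes under 30 UMIs over the cells compared were not tested, and no spread between mice can be given.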

Other observations

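Ighm, the gene of the immunoglobulin mu chain, was detected in 42.4% of anti-VEGF and 64.7% of control members, at 50.3 and 90.8 CPM, against 19.3 and 45.4 CPM in the other anti-VEGF and control macrophages. Thinned to 5000 UMIs per cell, 18.1% and 32.7% of anti-VEGF and control members had an Ighm UMI, against 0.375% and 0.58% of collagen-expressing cells in those libraries. The 8 mature dendritic cell markers, all detected, summed to 72.6 CPM in anti-VEGF and 112 CPM in control members, against 61.1 and 70.5 CPM in the others. Among chemokines of such cells, Ccl22 was at 1.79 CPM in anti-VEGF and 15.2 CPM in control members, each in under 4% of cells. Spp1, a phagocyte glycoprotein gene, was at 3225 and 3195 CPM in anti-VEGF and control members, with a log2 ratio of 0.01. This ratio was -0.41 with the top 5% as members. It was 0.90 in the top-scoring cells retaken without Ccr2 cells, mostly not members. Spp1 stood at 6611 and 2693 CPM in the other anti-VEGF and control macrophages. Timd4, a phosphatidylserine receptor gene of resident macrophages, was at 14.8 and 3.0995 CPM in anti-VEGF and control members, against 0.962 and 0.634 CPM in the others. It had the highest log2 ratio between members of the libraries among 17 resident-like genes. Of the 17, 8 were higher in anti-VEGF members and 9 lower, with a median of -0.07. By at least 1.5-fold 4 were higher and 2 lower, where 3.36% and 2.15% of all measured genes were.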
